A study of Mus musculus with 45 samples.

Results

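Interstitial macrophages (IM) were compared with alveolar macrophages (AM) of mouse lung 2h after lipopolysaccharide (LPS). The members are 4 of the 45 libraries of the series, chosen by cell type, route and time: 2 libraries labelled IM at 2h of intraperitoneal (ip) LPS and 2 labelled AM at the same time and route. All were made from C57BL/6J mice with no genetic change named, from cells sorted out of the lung by flow cytometry, and polyA RNA of small numbers of cells was amplified by a Smart-seq2 type protocol. The title of each library ends in a code. For IM these are ip160623 and ipA161219, and for AM ip160623 and ipB161219, and the values of a group are given in that order. The labels give neither the dose of LPS nor whether libraries came from separate or pooled animals, so the spread behind each p-value may be technical. Groups set beside them are 2 libraries of inflammatory monocytes (iMo) at 2h of ip LPS, 2 of IM and 3 of AM at 6h, and 2 of IM and 4 of AM at 0h, which had no LPS.

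AM live on the air side of the alveolus, are maintained by GM-CSF and the lipid-sensing nuclear receptor PPARγ, and clear surfactant lipid. IM live in the tissue around airways and vessels, are closer to blood monocytes in gene expression and present antigen. LPS is sensed through CD14, MD-2 and TLR4. The adaptor MyD88 then leads to NF-kB and the cytokine genes, and the adaptor TRIF leads to IRF3 and interferon-β, which acts through its receptor and JAK kinases on interferon-stimulated genes. LPS given into the peritoneum reaches the lung with the blood, whereas AM face the airspace.

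The values are TPM, an expression level scaled by transcript length and library, as the authors deposited them, and they carry no read depth. The IM columns sum to 408064 and 486549 TPM and the AM columns to 387449 and 505710 TPM. Rn45s, a ribosomal RNA precursor, held 23.97% and 4.33% of the sum in IM, against 28.7% and 6.86% in AM. Genes with at least 5 TPM numbered 4068 and 5374 in IM, against 5723 and 7298 in AM. Above 0 TPM were 21582 and 13449 genes in IM, against 21631 and 21862 in AM, so IM ipA161219 had the fewest. The Pearson correlation of log2(TPM+1) was 0.955 between the IM libraries and 0.969 between the AM libraries, and it ran from 0.767 to 0.825 between IM and AM.

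Markers were read first, as a check of the labels. The AM label held: all 25 alveolar macrophage markers reached 5 TPM in both AM libraries, and their summed level was 9954 to 22797 TPM, against 544 to 1736 TPM in IM. The IM label held in part. Of 24 interstitial macrophage markers tested, 13 were higher in IM than in AM and 2 lower, where 12.7% and 41.9% of all genes were. The other 9 were not called, and by their sum the markers did not set IM apart from iMo. Classical monocyte markers summed to 9284 to 14130 TPM in the libraries labelled IM, against 129 to 139 TPM in AM, and to 12047 to 16485 TPM in iMo. Markers of interstitial macrophages summed to 1442 to 2917 TPM in the libraries labelled IM, against 213 to 390 TPM in AM, and to 1952 to 2473 TPM in iMo. Of the 25 listed, 12 reached 5 TPM in both IM libraries and 5 in both AM libraries. Cd14, with 836 and 1399 TPM, and Apoe, with 321 and 883 TPM, made up most of the sum in IM. The sum in IM at 2h was below the 7503 to 9087 TPM of IM at 0h. C1qa, a subunit of complement C1q made by tissue macrophages, had 20.7 and 59.0 TPM in IM at 2h, against 0.401 and 2.75 TPM in AM at 2h, while IM at 0h had 1077 and 973 TPM. Cx3cr1, Cd163 and Stab1, surface receptors of resident macrophages, stayed under 2 TPM in every library of IM and AM at 2h. Folr2, the folate receptor of resident macrophages, had 1.02 and 6.96 TPM in IM and was listed at 0 in both AM libraries. Neutrophil markers summed to 27749 to 37702 TPM in the libraries labelled IM, against 668 to 792 TPM in AM and 2812 to 6800 TPM in iMo. Of the 21 neutrophil markers listed, 18 reached 5 TPM in both IM libraries and 7 in both AM libraries. They moved with the comparison throughout and their part in the results was not tested, so values of iMo, in which Retnlg had 1.22 and 2.41 TPM, are given beside several results. Lung epithelial markers summed to 40.1 to 93.1 TPM in IM, against 209 to 416 TPM in AM, and 3 of 9 tested (Epcam, Cdh1, Tppp3) were lower in IM, and their part in the results was not tested. Endothelial markers summed to at most 28.1 TPM in IM and 24.0 TPM in AM. In bulk samples, fewer cells of a type and less RNA per cell cannot be told apart.

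**Figure D1:**
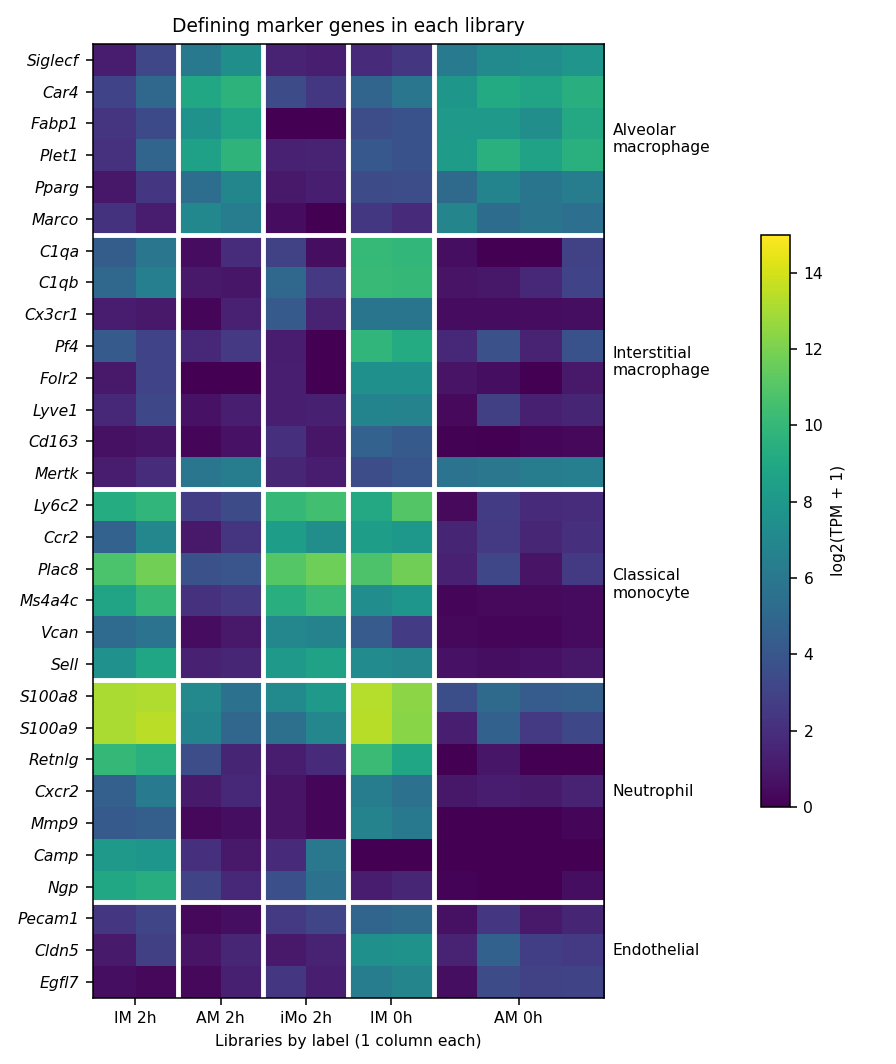
Levels of defining marker genes, as log2(TPM+1) in colour, with 1 row per gene and 1 column per library. The columns are IM, AM and iMo at 2h of ip LPS, then IM and AM at 0h. Alveolar macrophage genes are bright in AM columns, monocyte and neutrophil genes in IM columns, and C1qa, C1qb, Pf4 and Folr2 are brighter in IM at 0h than in IM at 2h.

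Of 8937 genes tested, 4877 differed between IM and AM at 2h (54.6%) by limma with Benjamini-Hochberg adjustment: 1135 were higher in IM (12.7%) and 3742 were lower (41.9%). Each list count below is to be read beside these shares, and a count near or under them is no result about its list. The median log2 difference over all genes tested was -0.765, so most genes were read at lower TPM in IM. Each log2 difference below is given relative to that median, and the tests and the words higher and lower refer to the values before this subtraction. On values centred on the median of each library, 4310 genes differed (48.2%), 2095 of them higher (23.4%) and 2215 lower (24.8%). The share of higher genes among those called was thus 23.3% as deposited, 48.6% centred and 43.9% after quantile normalization. All 1135 genes higher as deposited were higher when centred, while 1527 of those lower as deposited were not called when centred. Both IM libraries stood above both AM libraries in 1443 genes (16.1%) and below both in 4522 (50.6%). Within each pair of libraries that share the digits of their code, 1135 of 1135 genes called higher and 3741 of 3742 called lower had the sign of the pooled value. Leaving out AM ipB161219 gave 3059 genes.

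**Figure D2:**
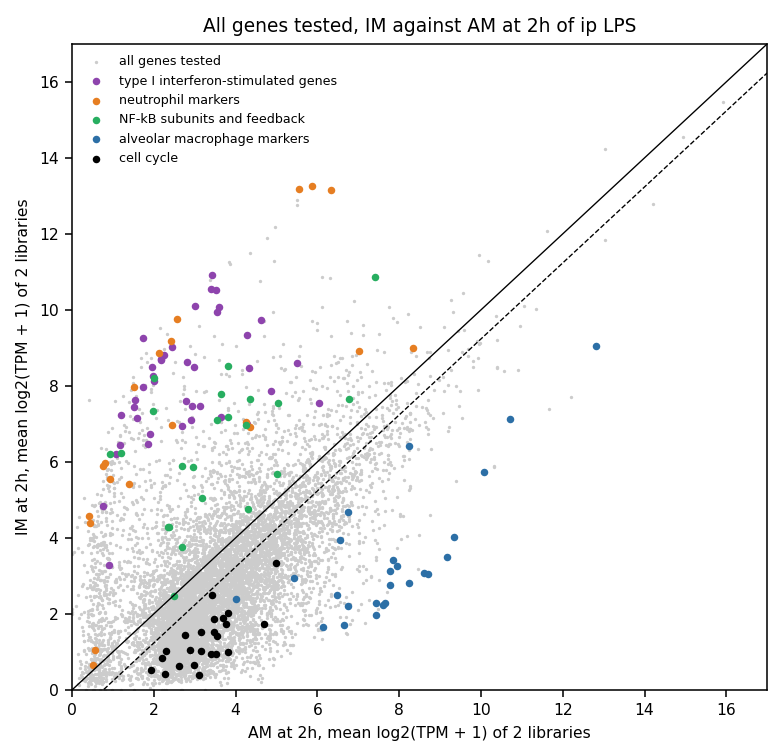
Mean log2(TPM+1) of the 2 IM libraries (vertical) against that of the 2 AM libraries (horizontal) at 2h of ip LPS, 1 point per gene. The solid line marks equal values and the dashed line is shifted by the median of all genes, -0.765. Interferon-stimulated genes and neutrophil markers lie above the lines and alveolar macrophage markers below.

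The 15 genes with the largest difference in favour of IM were led by Lcn2. Lcn2, which binds bacterial iron carriers, had 6606 and 13028 TPM in IM, against 60.3 and 34.4 TPM in AM, a log2 difference of 8.40 (SE 0.65, limma adjusted p = 3.61e-09). Ifi205, an interferon-inducible nuclear protein, had 309.7 and 1212 TPM in IM, against 2.08 and 2.59 TPM in AM (8.29, SE 0.81). Slfn4, a myeloid Schlafen gene of the interferon response, had 907 and 4186 TPM in IM, against 9.32 and 10.2 TPM in AM (8.27, SE 0.61). These libraries did not overlap, and the IM values spread more widely than the AM values for the last 2 genes. Marcksl1, a membrane and actin regulator, had 1189 and 2654 TPM in IM, against 9.79 and 9.10 TPM in AM (8.18, SE 0.45). Acod1, the enzyme that makes itaconate, had 526 and 1029.6 TPM in IM, against 4.56 and 2.53 TPM in AM (8.14, SE 0.58). Plac8, Ifitm3 and Hp, all listed as classical monocyte markers, were higher by 8.20, 7.88 and 7.92, and Retnlg, a neutrophil resistin, by 7.96. Plac8 had 1713 and 3547 TPM in IM and 2120 and 3274 TPM in iMo, whereas Retnlg had 1023 and 730.4 TPM in IM and 1.22 and 2.41 TPM in iMo.

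All 40 tested genes of the 41 on the list of type I interferon-stimulated genes were higher in IM, with a median log2 difference of 6.31 where the median of all genes is 0. They ranged from Lgals3bp (2.27) to Ifi205 (8.29), and the count was 40 also on centred, quantile-normalized and rescaled values. Rsad2, the antiviral radical enzyme viperin, had 832 and 2663 TPM in IM, against 8.63 and 10.7 TPM in AM (7.90, SE 0.59, limma adjusted p = 2.88e-09). Ifit1, which binds viral RNA caps, had 617 and 1932 TPM in IM, against 6.47 and 7.77 TPM in AM (7.84). Irf7, the factor that amplifies interferon production, had 959 and 2243 TPM in IM, against 9.58 and 11.4 TPM in AM (7.77). In each of them the lower IM library stood far above the higher AM library. The RNA sensors Ddx58, Ifih1 and Dhx58 were higher by 5.01, 5.09 and 4.96, the oligoadenylate synthetases Oas2 and Oas3 by 6.34 and 6.67, and Isg15, a ubiquitin-like modifier, by 7.15. The negative regulator Usp18, which removes that modifier, was higher by 7.35. The iMo libraries had 689.9 and 1285 TPM of Isg15, close to the 655 and 1474 TPM of IM. Which cells carried Isg15 in the IM libraries was not tested. Ifit3 and Ifit3b, Oas1a and Oas1g, and Ifi204 and Ifi205 are near copies whose reads the counting could split, so their single values are uncertain. Slfn4 and Slfn5 are related genes, and whether the counting split their reads was not tested.

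The promoters of these genes were read as a description. All tested members of the list were called, so the shares below describe the list and are no support for the differences. Of the 40 higher genes, 29 matched RefSeq's promoter table (GRCm38.p6; 250 bases before to 50 after the start), with 33 promoters. The interferon-stimulated response element was searched on both strands as GAAA, any 2 bases, and GAAA. It was in 17 of the 33 (51.5%) and in 1131 of 32851 promoters in the table (3.44%). It was also in 8 of 10 promoters of the higher interferon-inducible GTPases (80.0%), and in 0 of 17 promoters of higher neutrophil markers and 0 of 21 of lower alveolar macrophage markers, where these letters were not in this window. A match describes the letters and not a bound site. The promoters of Ifi205, Rsad2 and Ifit1 are shown, 5′ to 3′ on the gene's strand, with matches on either strand in capitals. They were picked for holding the element, in order of difference, and Slfn4 (8.27) was passed over. Ifi205 is at chr1:174031706-174032005, minus strand. Rsad2 is at chr12:26456403-26456702, minus strand. Ifit1 is at chr19:34640639-34640938, plus strand.
Ifi205: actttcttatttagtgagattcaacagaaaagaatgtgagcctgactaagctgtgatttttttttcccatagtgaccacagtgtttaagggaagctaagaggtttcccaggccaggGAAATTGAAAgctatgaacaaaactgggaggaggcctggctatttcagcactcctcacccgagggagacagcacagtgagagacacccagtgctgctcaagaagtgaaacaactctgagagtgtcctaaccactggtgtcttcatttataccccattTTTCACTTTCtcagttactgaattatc
Rsad2: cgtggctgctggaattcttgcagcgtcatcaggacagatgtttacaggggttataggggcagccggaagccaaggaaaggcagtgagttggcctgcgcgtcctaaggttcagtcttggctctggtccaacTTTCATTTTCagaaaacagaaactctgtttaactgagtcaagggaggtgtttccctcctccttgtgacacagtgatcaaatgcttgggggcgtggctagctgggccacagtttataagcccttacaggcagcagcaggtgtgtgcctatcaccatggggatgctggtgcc
Ifit1: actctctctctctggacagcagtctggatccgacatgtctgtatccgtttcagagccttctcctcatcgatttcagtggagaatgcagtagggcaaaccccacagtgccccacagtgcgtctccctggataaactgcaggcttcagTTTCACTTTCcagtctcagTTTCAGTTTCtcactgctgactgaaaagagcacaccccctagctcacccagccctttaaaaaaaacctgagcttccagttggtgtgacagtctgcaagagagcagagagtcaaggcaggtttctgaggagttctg
Ifi205 and Ifit1 hold the element at 2 places each and Rsad2 at 1.

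Interferon-inducible GTPases, which attack vacuoles of pathogens, followed: 13 of 14 tested (16 listed) were higher and Gbp8 did not pass. Ifi47 had 354 and 1123 TPM in IM, against 7.09 and 14.0 TPM in AM (6.61, SE 0.73, limma adjusted p = 7.92e-07), and Gbp2 had 349.7 and 870.5 TPM, against 9.45 and 14.4 TPM (6.21). Gbp8 had 0.625 and 1.66 TPM in IM, against 4.63 and 8.24 TPM in AM (-1.03, limma adjusted p = 0.0799). The Gbp and Tgtp genes are also near copies. Among interferon regulatory factors, receptors and their kinases, 10 of 15 tested were higher and 1 lower. Irf9 (3.42), Irf5 (3.45), Jak2 (4.17), Ifnar1 (2.60) and Ifnar2 (2.21), the last 2 being the chains of the type I interferon receptor, were higher. Ifngr1, the ligand-binding chain of the interferon-γ receptor, was lower, with 12.4 and 34.9 TPM in IM, against 77.4 and 151 TPM in AM (-1.55, SE 0.52), and its partner Ifngr2 was higher (2.17). Irf3, Irf8 and Tyk2 did not pass the test.

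Of the 22 NF-kB subunits and feedback genes, all tested, 17 were higher in IM and the other 5 (Rela, Tnfaip2, Birc2, Cyld, Ikbkb) did not pass. The median log2 difference was 3.82, and 21 passed on centred values, all but Cyld. Ikbke, the kinase IKKε that links NF-kB to interferon, led with 205 and 427 TPM in IM, against 2.44 and 3.73 TPM in AM (6.96, SE 0.56, limma adjusted p = 9.83e-09). Nfkbiz, the nuclear cofactor IκBζ, had 142 and 178 TPM in IM, against 4.02 and 2.08 TPM in AM (6.11, SE 0.35). Tnfaip3, the deubiquitinase A20 that ends NF-kB signalling, had 293 and 456 TPM in IM, against 13.4 and 12.5 TPM in AM (5.48, SE 0.45). The inhibitor Nfkbia, which NF-kB induces against itself, had 1490.0 and 2337 TPM in IM, against 148 and 193 TPM in AM (4.22). In each of these the 4 libraries separated by label. Of the subunits, Nfkb2 (4.13), Relb (3.69), Nfkb1 (3.47) and Rel (2.68) were higher, and Rela had 39.9 and 63.5 TPM in IM, against 26.6 and 37.1 TPM in AM (1.43, limma adjusted p = 0.181).

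Promoters of the NF-kB, cytokine and chemokine lists were read in the same way, as a description of listed genes and no support for the differences. A kappa B type motif was searched as GGG, any 3 bases, and TTCC on both strands of the same windows. It was in 14 of 22 promoters of the higher NF-kB and feedback genes (63.6%, 14 of 17 genes matched), against 1825 of 32851 in the table (5.56%) and 5 of 33 of the interferon-stimulated genes (15.2%). Among higher cytokines and chemokines it was in 6 of 21 promoters (28.6%) and the interferon-stimulated element in 2 of 21. Tnfaip3, at chr10:19015361-19015660 on the minus strand, is shown for the feedback genes, and Cxcl10, at chr5:92348840-92349139 on the minus strand, because both motifs are in it. Tnfaip3 was picked for holding the motif, and Ikbke, Nfkbiz, Tnip3 and Traf1, with larger differences, were passed over. Cxcl10 was picked after its motifs and values were seen. Capitals mark both motifs, on either strand.
Tnfaip3: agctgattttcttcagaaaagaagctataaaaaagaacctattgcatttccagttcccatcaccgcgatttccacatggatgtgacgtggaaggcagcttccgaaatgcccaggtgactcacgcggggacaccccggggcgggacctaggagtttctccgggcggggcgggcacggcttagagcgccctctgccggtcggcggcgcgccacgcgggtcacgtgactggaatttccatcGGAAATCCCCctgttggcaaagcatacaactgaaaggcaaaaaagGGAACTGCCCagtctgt
Cxcl10: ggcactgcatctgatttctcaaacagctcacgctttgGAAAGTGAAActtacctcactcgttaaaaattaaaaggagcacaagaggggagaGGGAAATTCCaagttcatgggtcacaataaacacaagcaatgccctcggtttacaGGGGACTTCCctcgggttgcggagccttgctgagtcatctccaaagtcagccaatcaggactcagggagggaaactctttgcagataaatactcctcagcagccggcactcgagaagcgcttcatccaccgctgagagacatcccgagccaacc
Tnfaip3 holds 2 kappa B type matches, and Cxcl10 holds 2 of them after 1 interferon-stimulated element.

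The LPS receptor and its adaptors differed member by member: 12 of 23 tested were higher and 3 lower, and on centred values 16 were higher and 1 lower. Cd14, which hands LPS to the receptor, had 836 and 1399 TPM in IM, against 64.7 and 70.7 TPM in AM (4.75, SE 0.48, limma adjusted p = 5.29e-07). Tlr4 itself had 3.02 and 14.2 TPM in IM, against 12.6 and 22.7 TPM in AM (-0.43, limma adjusted p = 0.0454), so the libraries overlapped, and it was not called when centred. Irak3, a brake on receptor signalling, was higher (4.80), as were Irak2 (2.73), Myd88 (2.48) and Ticam1, which encodes TRIF (1.90). Irak1 was lower (-0.57), and Ticam2, the adaptor that brings TRIF to TLR4, was lower as deposited (-0.81) but not when centred. Tlr2 had 125 and 237 TPM in IM, against 103 and 163 TPM in AM (1.17, limma adjusted p = 0.485), and was called higher on centred values alone.

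Of 12 tested SOCS genes and MAPK phosphatases, 7 were higher and 1 lower. Dusp2, a phosphatase of ERK and p38, had 433 and 418 TPM in IM, against 3.15 and 1.47 TPM in AM (7.82, SE 0.53, limma adjusted p = 7.78e-10), with close values in IM. Socs1 and Socs3, inhibitors of JAK kinases, were higher (6.16 and 4.71), and Dusp16 and Dusp1 by 5.19 and 4.61. Socs2 was lower, with 0.394 and 3.51 TPM in IM, against 16.2 and 29.0 TPM in AM (-2.41). Of 8 tested mRNA decay factors, 2 were higher and 2 lower, with a median log2 difference of 0.56. Zfp36, or tristetraprolin, and Zc3h12a, or regnase-1, were higher (4.00 and 2.73), and Zfp36l2 and Auh were lower (-2.84 and -1.05). Auh lost its call without IM ip160623 (limma adjusted p = 0.242) or AM ipB161219 (limma adjusted p = 0.196).

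Immediate early genes did not move as one: 11 of 20 tested were higher and 4 lower. Klf2 and Nr4a1, factors that restrain myeloid activation, led. Klf2 had 186 and 492 TPM in IM, against 3.46 and 8.68 TPM in AM (6.29, SE 0.63, limma adjusted p = 2.19e-07). Nr4a1 had 195 and 244 TPM in IM, against 5.16 and 5.89 TPM in AM (5.84). Ier3 (5.00), Atf3 (3.41) and Junb (3.17) were also higher. Egr2, Klf4, Myc and Maff were lower (-1.44, -0.87, -1.91 and -1.78). Fos overlapped, with 116 and 37.2 TPM in IM, against 116 and 58.8 TPM in AM (0.44, limma adjusted p = 0.646).

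Inflammatory cytokines were higher in IM in 15 of 17 tested genes (23 listed), with Il18 lower and Tnfsf14 not passing, and a median log2 difference of 4.34. Il1b, whose product needs cleavage by caspase-1, had 1295 and 4886 TPM in IM, against 24.2 and 36.1 TPM in AM (7.13, SE 0.84, limma adjusted p = 1.74e-06). Ebi3, the shared chain of IL-27, had 335 and 458 TPM in IM, against 4.08 and 5.35 TPM in AM (6.88), and its partner Il27 had 48.4 and 87.4 TPM, against 2.62 and 4.24 TPM (4.69). The groups did not overlap in these genes. Tnf, the early systemic mediator of LPS, had 113 and 126 TPM in IM, against 6.42 and 6.84 TPM in AM (4.75, SE 0.46). Il6 had 16.0 and 26.4 TPM in IM, against 0.381 and 1.31 TPM in AM (4.36). Edn1, the vasoconstrictor endothelin, was higher by 5.71 and Il15, which sustains natural killer cells, by 5.03. Il12b, Csf2 and Ifnb1, the interferon-β gene, did not reach the filter of 5 TPM in 2 libraries. Il18, also matured by caspase-1, had 48.9 and 147 TPM in IM, against 183 and 495 TPM in AM (-1.05, SE 0.60, limma adjusted p = 0.0142).

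Chemokines split by gene. Of 13 CC chemokine genes (Ccrl2, a decoy-like receptor, is listed with them), 8 were higher and 1 lower. Ccl4, which attracts monocytes and T cells, had 1756 and 3158 TPM in IM, against 16.8 and 10.9 TPM in AM (8.11, SE 0.73, limma adjusted p = 3.85e-08), and Ccl5, which does so too, had 4171 and 5117 TPM, against 30.1 and 29.9 TPM (7.98). Ccl3 was higher by 6.92 and the monocyte attractants Ccl2 and Ccl7 by 6.37 and 5.71. Ccl6, a chemokine abundant in AM, had 106 and 405 TPM in IM, against 2959 and 7474 TPM in AM (-3.73, SE 0.74). The CXCR3 ligands were all higher: Cxcl10 had 4274 and 11052 TPM in IM, against 49.2 and 39.8 TPM in AM (8.01, SE 1.09), and Cxcl11 and Cxcl9 were higher by 6.31 and 3.59. Cxcl10 and Ccl4 were also high in iMo, with 3861 and 8795 TPM and with 1163 and 2136 TPM. Cxcl2, which attracts neutrophils, had 728 and 941 TPM in IM, against 31.3 and 19.8 TPM in AM (5.76), while iMo had 6.84 and 16.6 TPM. Cxcl1 was higher (3.37) but lost its call without AM ipB161219 (limma adjusted p = 0.0698), and Cxcl3 did not pass. Cx3cl1 and Cxcl14 were lower (-2.31 and -1.09). Among the receptors, Ccr2 (4.93), Cxcr2 (4.78), Ccr7 (2.24) and Ccrl2 (5.96) were higher, and Ccr7 lost its call without AM ipB161219 (limma adjusted p = 0.144) or IM ipA161219 (limma adjusted p = 0.0865). Cxcr4 was lower as deposited (-0.95) but not when centred.

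**Figure D3:**
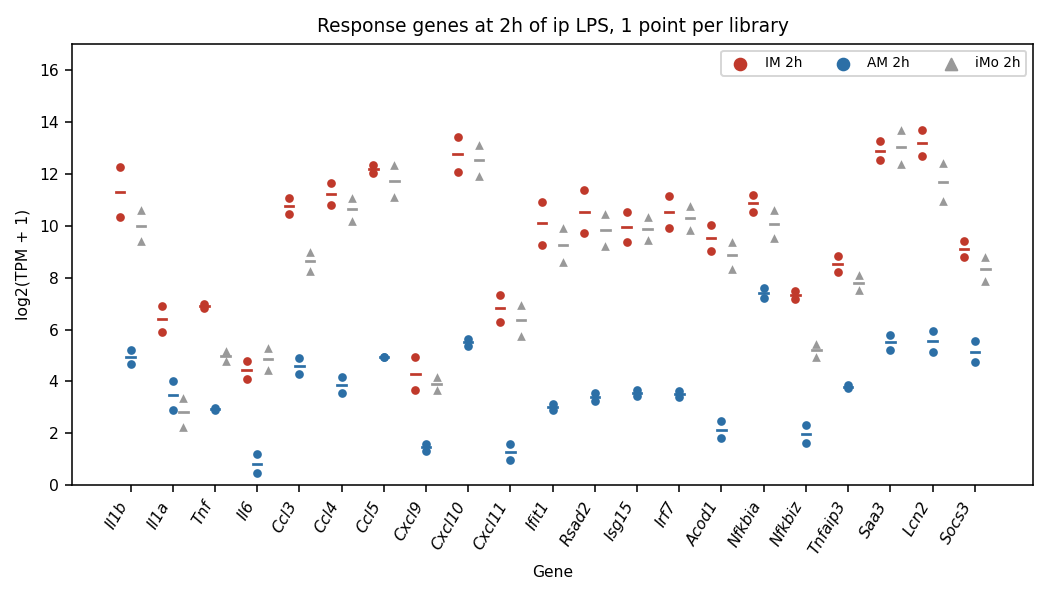
Levels of cytokine, chemokine, interferon-stimulated, NF-kB and acute-phase genes at 2h of ip LPS as log2(TPM+1), with 1 point per library for IM, AM and iMo from left to right and a bar at the mean of each group. IM points lie above AM points in each gene drawn, and iMo points lie near AM for Il1a, with 3.75 and 9.36 TPM, and near IM for Isg15, with 689.9 and 1285 TPM.

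Anti-inflammatory genes were higher in 9 of 17 and lower in 3. Il1r2, the decoy receptor of IL-1 that neutrophils carry, had 244 and 876 TPM in IM, against 2.71 and 4.05 TPM in AM (7.51, SE 0.65, limma adjusted p = 2.11e-08). Il1rn, the IL-1 receptor antagonist, had 1144 and 2964 TPM in IM, against 54.8 and 111 TPM in AM (5.31). Il10 had 5.21 and 30.2 TPM in IM, against 0.166 and 0.457 TPM in AM (4.18). The glucocorticoid-responsive genes Fkbp5 (-2.09) and, as deposited only, Per1 (-0.39) were lower, and so was Tgfbi (-1.21). Inflammasome and lytic death genes were higher in 9 of 16 tested, and in 14 when centred. Mefv, the sensor pyrin, had 92.0 and 168 TPM in IM, against 1.03 and 1.83 TPM in AM (6.47, SE 0.41), and Casp4, the cytosolic LPS sensor caspase-11, had 244 and 554 TPM, against 19.5 and 19.3 TPM (4.94). Nlrp3 was higher by 3.95, Casp1 by 2.77 and Gsdmd by 2.33, whereas Pycard, the shared adaptor, had 37.1 and 73.3 TPM in IM, against 26.4 and 60.8 TPM in AM, with overlapping libraries, and passed on centred values alone.

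Acute-phase and antimicrobial genes were higher in 12 of 16 tested and lower in 1, with a median log2 difference of 5.32. Saa3, the serum amyloid A of macrophages, had 9779 and 5829.7 TPM in IM, against 54.9 and 36.1 TPM in AM (8.14, SE 0.77, limma adjusted p = 7.57e-08), and iMo had 5251 and 13281 TPM. Hp, the hemoglobin scavenger haptoglobin, had 2452 and 3431 TPM in IM, against 19.8 and 18.8 TPM in AM (7.92). S100a8 and S100a9, the subunits of calprotectin, were high in IM and low in iMo. S100a9 had 8745 and 11003 TPM in IM, against 108 and 30.3 TPM in AM (8.16, SE 0.79), and 45.4 and 121 TPM in iMo. Lyz2, the lysozyme with the highest mean among the genes called, had 4469 and 11160.0 TPM in IM, against 10907 and 33119 TPM in AM (-0.66, limma adjusted p = 0.0279). It overlapped, was not called when centred, and lost its call without IM ip160623 (limma adjusted p = 0.352) or AM ipB161219 (limma adjusted p = 0.45).

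Of the 20 neutrophil markers tested, 17 were higher in IM. Ngp, Camp and Ltf, proteins of specific granules that neutrophils make in the marrow, were among them. Ngp had 516 and 647 TPM in IM, against 7.57 and 2.31 TPM in AM (7.53, SE 0.56, limma adjusted p = 2.53e-09). Camp, the antimicrobial peptide cathelicidin, had 268 and 234 TPM in IM, against 3.09 and 1.00 TPM in AM (7.22). Ly6g, the antigen used to gate neutrophils, had 16.7 and 31.3 TPM in IM, against 0.353 and 0.324 TPM in AM (4.92). The primary granule gene Mpo did not reach the filter, and Elane had 1.44 and 0 TPM in IM, against 0.236 and 0.650 TPM in AM. Wfdc21 did not pass either, with 552 and 479 TPM in IM, against 322 and 322 TPM in AM (1.44, limma adjusted p = 0.446).

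Of 15 iron and heme genes tested, 8 were higher and 5 lower. Higher in IM were Slc11a1, the phagosomal metal exporter (5.52), Steap4, a metal reductase (4.76), Slc11a2, its importer relative (2.44), and Fth1, the heavy ferritin chain. Fth1 had 15168 and 24480.3 TPM in IM, against 6081 and 11588 TPM in AM (1.96, limma adjusted p = 0.0377), and it lost its call without IM ipA161219 (limma adjusted p = 0.221) or AM ip160623 (limma adjusted p = 0.272). Ftl1, the light chain, had 294 and 399.9 TPM in IM, against 1499 and 2456 TPM in AM (-1.72, SE 0.38). Trf, or transferrin, and the heme transporter Slc48a1 were lower (-3.11 and -2.42).

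Of itaconate, arginine and redox enzymes, 10 of 21 tested were higher and 6 lower. After Acod1 came Arg2 (5.61), Nos2, the inducible nitric oxide synthase (5.18), and Ass1, which recycles its substrate (4.86). Nos2 had 65.3 and 22.5 TPM in IM, against 0.704 and 1.00 TPM in AM. The glutathione and peroxide genes Gclm, Gclc, Srxn1 and Prdx1 were lower (-1.59, -0.74, -1.11 and -1.42). Prdx1 had 40.1 and 83.2 TPM in IM, against 162 and 438 TPM in AM. Of 15 eicosanoid genes tested, 3 were higher and 6 lower, with a median log2 difference of 0.05, and on centred values 5 were higher and 5 lower. Ptges and Ptgs2, which make prostaglandin E2, were higher (4.48 and 3.70). Ptgs2 had 9.62 and 9.74 TPM in IM, against 0.218 and 0.60 TPM in AM. Hpgd, which degrades prostaglandins, was higher as well (4.07). The leukotriene enzymes Ltc4s, Alox5 and Lta4h were lower (-4.51, -2.94 and -1.43), and Alox5 had 2.80 and 5.65 TPM in IM, against 52.2 and 79.6 TPM in AM (limma adjusted p = 1.34e-07). Thromboxane synthase, Tbxas1, was lower too (-2.17).

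Of 11 coagulation genes tested, 4 were higher, where 12.7% of all genes were, and 4 were lower, where 41.9% of all genes were. Thbs1, the platelet adhesion protein thrombospondin, had 267 and 267 TPM in IM, against 2.35 and 1.38 TPM in AM (7.33, SE 0.74, limma adjusted p = 1.98e-07). Serpinb2 and F13a1 were higher by 5.97 and 5.74. F7, the tissue factor partner that AM make, had 3.55 and 15.7 TPM in IM, against 203 and 235 TPM in AM (-3.89). Matrix genes were higher in 7 of 15 tested and lower in 2, Timp1 (6.31) and Mmp14 (5.88) leading. On centred values 9 were higher and neither Spp1 nor Tgm2 was called lower.

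Of 19 MHC class I and peptide loading genes, 16 were higher, with Nlrc5, the class I transactivator, at 51.7 and 73.0 TPM in IM, against 1.53 and 1.63 TPM in AM (5.36, SE 0.37, limma adjusted p = 1.62e-09). Tap1 (4.79) and the immunoproteasome subunits Psmb9 (3.10) and Psmb8 (2.63) were also higher. H2-Q4, H2-Q6 and H2-Q7 are near copies whose reads the counting could split, so their values are uncertain. In MHC class II, 4 of 12 were lower as deposited, where 41.9% of all genes were, and on centred values 3 were higher and 3 lower. The difference between the classes was not tested. The peptide exchange genes H2-DMa, H2-DMb1 and H2-DMb2 were lower on both scales (-2.39, -2.18 and -0.88). H2-Aa, a chain of I-A, had 95.4 and 268 TPM in IM, against 51.0 and 147 TPM in AM (1.64, limma adjusted p = 0.405). Both groups were below IM at 0h, which had 1943 and 3392 TPM. Costimulatory and inhibitory ligands were higher in 9 of 16 and lower in 3. Cd40, the receptor of T cell help, had 104 and 183 TPM in IM, against 1.82 and 1.84 TPM in AM (6.38, SE 0.67), and Cd86 and Cd80 were higher by 3.09 and 2.90. Sirpa, the receptor of CD47, had 16.3 and 40.5 TPM in IM, against 160.3 and 321 TPM in AM (-2.32).

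Complement genes were higher in 7 of 16 tested and lower in 2, and on centred values higher in 10. C1qa, C1qc and C3ar1 were higher, but those calls rest on single libraries. Without IM ipA161219 the limma adjusted p was 0.0565 for C1qa, 0.126 for C1qc and 0.0518 for C3ar1, and without AM ip160623 it was 0.0514 for C1qa and 0.116 for C1qc. Cfb, factor B of the alternative pathway, had 244 and 474 TPM in IM, against 35.8 and 34.6 TPM in AM (4.00), and C3 was higher by 3.37. G protein-coupled receptors of inflammation were higher in 12 of 22 and lower in 3. Ptafr, the receptor of platelet-activating factor, had 69.6 and 114 TPM in IM, against 1.10 and 1.79 TPM in AM (5.98, SE 0.71, limma adjusted p = 2.35e-06). Gpr84, a receptor of medium-chain fatty acids, was higher by 5.83 and Adora2a, an adenosine receptor, by 4.92. P2ry14 and Ffar2 were lower (-1.92 and -1.34).

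Of 20 C-type and Siglec lectins tested, 8 were higher and 7 lower, where 12.7% and 41.9% of all genes were. Clec4a1, Clec4d and Clec4e, the last of which binds mycobacterial cord factor, were higher by 6.66, 5.36 and 4.50. Siglece, an inhibitory siglec of neutrophils and monocytes, was higher by 3.36. Lower were Clec4n, or dectin-2, with 14.7 and 35.5 TPM in IM, against 173 and 434 TPM in AM (-2.76, SE 0.71, limma adjusted p = 2.74e-04), Clec7a, or dectin-1 (-1.84), and Mrc1, the mannose receptor (-3.67). Of 13 scavenger receptors tested, 8 were lower and 2, Msr1 (5.51) and Cxcl16 (4.13), higher. Marco had 3.67 and 1.31 TPM in IM, against 129 and 76.7 TPM in AM (-4.17). Fcgr1, the high-affinity receptor for immunoglobulin G, was higher, with 269 and 429.8 TPM in IM, against 12.9 and 22.2 TPM in AM (5.01), and Fcgrt, which recycles that antibody, was lower (-3.58).

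All 25 alveolar macrophage markers were lower in IM, with a median log2 difference of -3.89, and 23 on centred values, where Fabp4 and Flt1 were not called. Plet1, a membrane protein of AM, had 3.44 and 28.1 TPM in IM, against 378 and 859 TPM in AM (-4.88, SE 0.89, limma adjusted p = 1.58e-05). Plet1os overlaps it and moved alike (-4.36), and since strand use in counting is not given, their reads cannot be told apart. Ear1, a ribonuclease with near copies, had 2.77 and 17.1 TPM in IM, against 313 and 547 TPM in AM (-4.88). Siglecf, the gate marker of AM, had 1.31 and 8.11 TPM in IM, against 65.6 and 175 TPM in AM (-3.79), and Pparg had 0.928 and 4.12 TPM, against 42.0 and 115 TPM (-3.73). In each of these IM ipA161219 was the higher of its pair. Other genes at this end were Atp6v0d2, a proton pump subunit (-4.77), Cidec, a lipid droplet protein (-4.72), Gal, the neuropeptide galanin (-4.64), Krt19 and Krt79, keratins (-4.62 and -4.59), Hebp1, a heme-binding protein (-4.58), Car4, a carbonic anhydrase (-4.54), Kazald1 (-4.48) and Acaa1b, a peroxisomal thiolase (-4.46). Mertk, a receptor for apoptotic cells that was listed under interstitial macrophages, was lower in IM, with 1.33 and 2.81 TPM, against 58.1 and 76.6 TPM in AM (-3.74).

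Lipid genes followed the AM markers, several of which are on both lists. Of 26 tested genes of fatty acid handling, 20 were lower and 2 higher, and on centred values 17 and 3. Fabp1 (-4.64), Lpl, or lipoprotein lipase (-3.91), and Angptl4, its inhibitor (-3.76), were lower. The β-oxidation gene Acadm had 1.39 and 1.37 TPM in IM, against 22.3 and 30.0 TPM in AM (-2.73, SE 0.41, limma adjusted p = 3.26e-07). Dgat2, which makes triglyceride, went the other way, with 123 and 234 TPM in IM, against 21.3 and 39.7 TPM in AM (3.27). Of 14 LXR targets tested, 8 were lower and 2 higher, where 41.9% and 12.7% of all genes were. On centred values 5 were lower and 2 higher. The cholesterol exporter Abcg1 was lower (-4.24), while its relative Abca1 had 6.84 and 10.7 TPM in IM, against 5.97 and 9.73 TPM in AM (0.92, limma adjusted p = 0.782). Apoe was higher (4.26), but it lost its call without IM ipA161219 (limma adjusted p = 0.134) or AM ip160623 (limma adjusted p = 0.164). In cholesterol synthesis, 2 of 19 tested genes were higher and 5 lower, where 12.7% and 41.9% of all genes were. Dhcr7 led the lower genes (-2.10).

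Lysosomal genes were lower in 17 of 27 and higher in 1, Npc2 (1.89). Ctsd, the aspartic protease of the lysosome, had 78.9 and 345 TPM in IM, against 1875 and 5559 TPM in AM (-3.51, SE 0.60, limma adjusted p = 4.02e-06), and Ctsk (-4.39) and Lipa, the acid lipase (-2.66), were lower too. Oxidative phosphorylation depended on the scale: 19 of 27 tested subunits were lower as deposited, with a median of -0.43 beside 0 for all genes. The count was 5 when centred, 22 after quantile normalization and 27 rescaled without Rn45s and Lars2. On that last scale 4626 of 8935 genes were lower. Cox5a had 51.0 and 84.6 TPM in IM, against 189 and 403 TPM in AM (-1.29). In glycolysis 4 of 19 were higher and 5 lower, where 12.7% and 41.9% of all genes were. Pfkfb3, which drives glycolytic flux, had 97.1 and 165 TPM in IM, against 9.49 and 9.48 TPM in AM (4.37, SE 0.42), and Hif1a was higher (2.77) but not without IM ipA161219 (limma adjusted p = 0.0692). Aldoa, Pdk1, Tpi1, Gpi1 and Ldha were lower.

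All 23 tested cell cycle genes (26 listed) were lower in IM, and 16 on centred values, with a median log2 difference of -1.09. Ccnb2, a mitotic cyclin, had 1.85 and 2.85 TPM in IM, against 18.8 and 33.1 TPM in AM (-2.20, SE 0.43, limma adjusted p = 5.34e-06). Rrm2, which makes deoxynucleotides, had 0.604 and 1.44 TPM in IM, against 8.26 and 20.5 TPM in AM (-2.07). Birc5, or survivin, was lower (-1.95). All but Pcna were under 5 TPM in both IM libraries. Ribosomal protein genes were lower in 7 of 22, where 41.9% of all genes were. They were lower in 2 when centred, 11 after quantile normalization and 12 rescaled without Rn45s and Lars2.

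Of 29 lineage transcription factors tested, 8 were higher and 11 lower, and 13 and 9 on centred values. Over all genes the shares were 12.7% and 41.9% as deposited, and 23.4% and 24.8% centred. Maf had 66.4 and 176 TPM in IM, against 0.474 and 1.30 TPM in AM (6.66, SE 0.58, limma adjusted p = 3.00e-08). Batf2 and Batf were higher by 4.20 and 3.19. Tcf7l2, an effector of Wnt signalling, had 2.13 and 3.86 TPM in IM, against 60.7 and 53.2 TPM in AM (-3.13), and Cebpa, Rxra, and Bhlhe41, a repressor that AM require, were lower (-2.60, -2.51 and -2.28). Spi1, which encodes PU.1, had 525 and 1070.1 TPM in IM, against 230.4 and 566 TPM in AM (1.82, limma adjusted p = 0.0554) and passed on centred values alone. The receptors of the growth factors that sustain each cell were partly shared. Csf1r was higher (1.95), while Csf2ra had 164 and 283 TPM in IM, against 188 and 256 TPM in AM (0.74, limma adjusted p = 0.962), with overlapping libraries, and passed on centred values alone. The TGF-β receptors Tgfbr2 and Tgfbr1 were lower (-3.10 and -2.51). Of the integrins, Itgam, or CD11b, was higher (5.75) and Itgax, or CD11c, lower (-3.22).

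**Figure D4:**
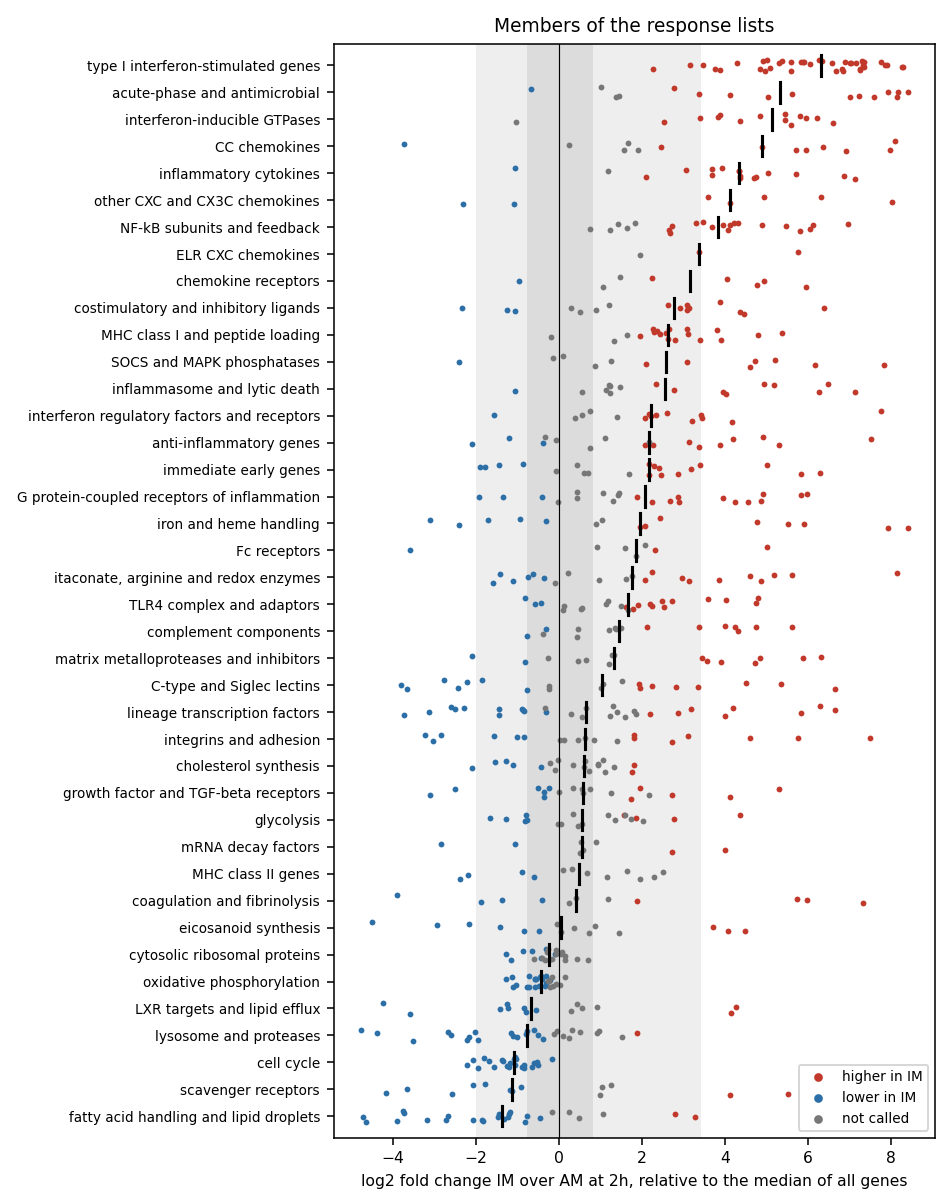
Relative log2 difference of IM against AM at 2h for each tested member of 40 response lists, ordered by list median (black bar). Red points were higher in IM, blue points lower and grey points not called, and grey bands show the central part of all genes tested. Type I interferon-stimulated genes are highest (median 6.31), and fatty acid handling lowest (-1.38).

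The difference at 2h was then set against the difference at 0h, which asks how far IM and AM already differed before LPS. This comparison uses the same 2h libraries as the one above and is no independent support for it. Both IM libraries at 0h carry another code (A171227, B171227) than those at 2h, so that code and time cannot be told apart in IM. The difference changed in 2501 of 8937 genes (28.0%) by limma, with 442 higher at 2h than at 0h (4.95%) and 2059 lower (23.0%). On centred values 2180 changed (24.4%), 1255 higher (14.0%) and 925 lower (10.4%), so higher genes were 17.7% of those called as deposited, 57.6% centred and 51.3% after quantile normalization. The values below are relative to the median change, -0.778. Leaving out AM ipB161219 at 2h gave 1129 genes, and leaving out IM A171227 at 0h gave 1614.

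Among genes whose difference grew, Ccl3 had 1393 and 2145 TPM in IM at 2h, against 29.0 and 18.5 TPM in AM at 2h. At 0h it had 9.69 and 11.2 TPM in IM, against 6.04, 39.1, 7.62 and 6.49 TPM in AM, and the change was 6.96 (SE 0.76, limma adjusted p = 2.39e-05). Before LPS the cell types overlapped in Ccl3, and at 2h they did not. Il1a, with 58.3 and 118 TPM in IM at 2h, against 6.53 and 15.1 TPM in AM at 2h, even turned over: at 0h it had 0.387 and 1.79 TPM in IM, against 5.27 to 30.5 TPM in AM (6.94, SE 0.80). Il1rn had 35.3 and 49.3 TPM in IM at 0h, against 42.1 to 156 TPM in AM at 0h, so the libraries overlapped at 0h and did not at 2h (6.60). Camp was listed at 0 in all 6 libraries of 0h, so no fold is given for that time, and Gpr84 was under 3 TPM in each of them (6.32). Tnfaip3 (5.97), Acod1 (5.74), Tnf (5.57) and Cxcl10 (5.47) also grew apart, whereas for Il1b the change was 3.15 (limma adjusted p = 0.109) and for Irf7 1.91 (limma adjusted p = 0.34). By list, IM minus AM rose in 27 of 40 interferon-stimulated genes, 14 of 22 NF-kB and feedback genes and 11 of 17 cytokines, where it rose in 4.95% of all genes.

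Among genes whose difference shrank or turned, Ccl8, a chemokine of resident macrophages, had 4.75 and 1.23 TPM in IM at 2h, against 0.213 and 1.17 TPM in AM at 2h. At 0h it had 308 and 231 TPM in IM, against 0 to 1.12 TPM in AM (-5.62, SE 0.85, limma adjusted p = 4.67e-05). Retnla (-4.69), Pf4 (-4.55), Cd209f (-4.53) and Thbd, or thrombomodulin (-4.55), did likewise, and each was low in IM at 2h. Retnla had 31.7 and 7.37 TPM in IM at 2h, against 1.09 and 0 TPM in AM, so its libraries still did not overlap, and Thbd was lower in IM at 2h (-1.88). By list, IM minus AM fell in 15 of 24 interstitial macrophage markers and 9 of 12 MHC class II genes, where it fell in 23.0% of all genes. A fall need not be a smaller gap. For Mertk, counted here, IM had 10.6 and 14.9 TPM at 0h, against 51.5 to 86.4 TPM in AM, and the gap widened at 2h. IM minus AM also fell in 13 of 15 endothelial markers, which summed to 681 to 909 TPM in IM at 0h, against 17.8 to 125 TPM in AM at 0h. The same held for 7 of 9 lung epithelial markers (532 to 909 TPM in IM at 0h, against 266 to 585 TPM in AM), 3 of 4 fibroblast markers (550.2 to 551 TPM, against 6.6 to 128 TPM) and 4 of 5 erythroid and platelet markers, Pf4 among them (636 to 1261 TPM, against 16.2 to 39.2 TPM). The part of these cell types in the changes was not tested. Neutrophil markers summed to 11640 to 23327 TPM in IM at 0h. Of 20 tested, IM minus AM rose in 4 and fell in 2 as deposited, and rose in 10 on centred values, with a median change of 1.51. Their part in the changes was not tested. For S100a9 and Plac8, high in IM at both times, the changes were -1.75 (limma adjusted p = 0.0733) and -1.08 (limma adjusted p = 0.162).

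**Figure D5:**
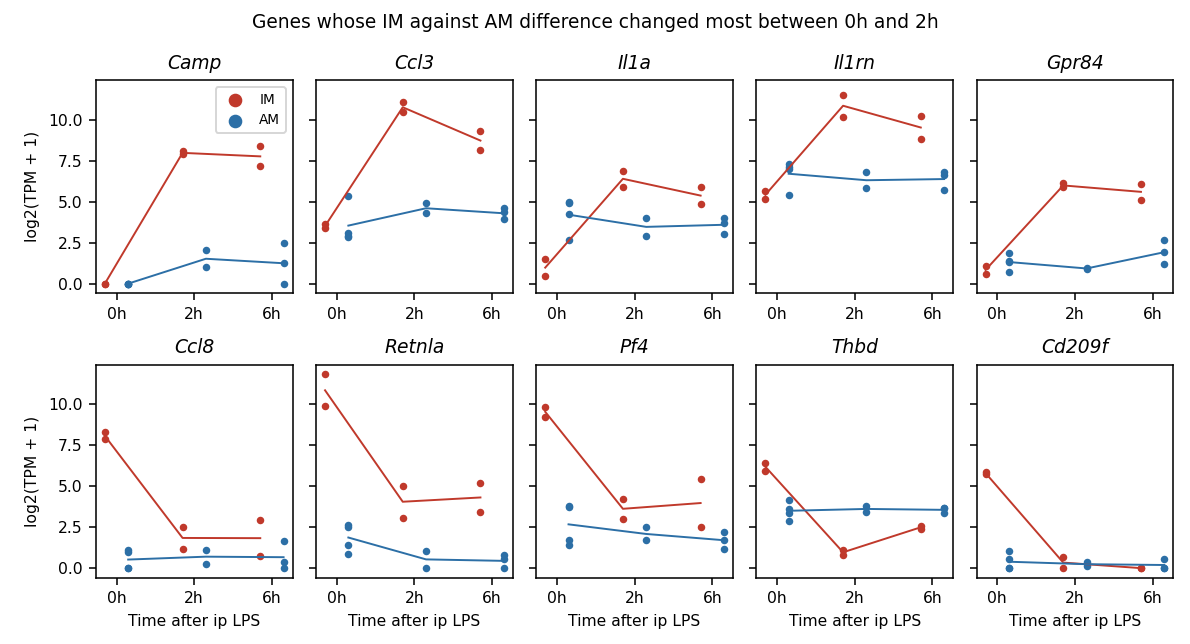
Levels as log2(TPM+1) of 10 genes whose IM against AM difference changed most between 0h and 2h, at 0h, 2h and 6h of ip LPS, with 1 point per library, IM left of AM at each time, and lines through the group means. Ccl3 overlaps between the cell types at 0h and not at 2h, and Ccl8 is at 308 and 231 TPM in IM at 0h and under 5 TPM at 2h.

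Between 2h and 6h the difference changed in 60 of 8937 genes (0.671%), 34 higher at 2h (0.38%) and 26 lower (0.291%), relative to a median change of -0.33. On centred values 316 changed (3.54%), with 218 higher (2.44%) and 98 lower (1.1%), and the share of higher genes was 56.7% as deposited and 69.0% centred. Serpinb2, an intracellular serpin of activated macrophages, had 35.8 and 107 TPM in IM at 2h, against 0.545 and 0.898 TPM in AM at 2h. At 6h IM ipA161219 and IM ip160623 had 5.75 and 1.23 TPM, against 0 to 0.678 TPM in AM, and the change was 3.92 (SE 0.77, limma adjusted p = 0.0352). Rilpl1 (3.82), Cxcl11 (3.62), Tnip3 (3.46) and Slc25a22, a glutamate carrier (3.36), also differed more at 2h, and in each of them both IM libraries at 6h stood below both IM libraries at 2h. Eif4ebp1, the translation inhibitor 4E-BP1, had 12.98 and 20.8 TPM in IM at 2h, against 101 and 163 TPM in AM at 2h. At 6h it had 176 and 94.6 TPM in IM, against 85.2 to 139 TPM in AM (-2.75, SE 0.69, limma adjusted p = 0.0394). Fabp5 (-2.72), the lactate exporter Slc16a3 (-2.58), Crispld2 (-2.52) and Lasp1 (-2.31) moved in the same direction. The count rests on single libraries: leaving out any of the 9 in turn gave 1 to 39 genes, with 1 gene without AM ipB161219 at 2h. The 39 genes called without IM ipA161219 at 6h shared 25 with the 60.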

How the data were processed

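Per the labels' protocols, sorted mouse lung cells were lysed and polyA RNA was amplified for sequencing. The authors deposited 1 table of TPM values for 23594 genes and 45 libraries. STAR and HOMER and the mm10 build are named in the submitters' processing notes, and the sources used here give no version, annotation or strand setting. TPM carry no read depth, so no counting interval can be given, and a fold change on log2(TPM+1) understates the change of low genes. The 18 columns of nasal LPS were left out, because they correlated with the 27 libraries of 0h and intraperitoneal LPS at a median r of 0.015, against 0.892 among those. No 2 columns were identical. The 27 libraries, in 12 groups, were fitted together with limma 3.58.1 in R 4.3.3 (trended empirical Bayes, 15 residual degrees of freedom), on 8937 genes of at least 5 TPM in 2 or more libraries, with Benjamini-Hochberg adjustment at 0.05. Differences are IM minus AM. The fit was tested on simulated data: of 200 genes changed at 2h among 8937, 98% were recovered at 8-fold, 70% at 4-fold and 0.5% at 2-fold. For the change from 0h, recovery was 90%, 32% and 0%. The changed genes had a mean log2(TPM+1) in AM at 2h above log2 of 20, and all others were left equal. Recovery of lower genes, or with as many genes changed as in the data, was thus not tested. Alternatives were another pseudocount, filter, scaling, weighting, block and set of libraries, and leaving out each library. Named genes were the 15 largest called differences per direction (not overlapping, at least 20 TPM), up to 4 per list, 5 per direction for each change between times, and the 10 called genes of highest TPM; other genes named were chosen after their values were seen. The members and lists were chosen with earlier results of these data known. A few genes of the lists are not reported here by name.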

Additional observations from a re-analysis of the deposited data

Results flagged for a closer look

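The following genes differed between IM and AM by another amount at 2h than at 0h or 6h, by limma's test of the difference of differences; all values are log2 and relative to the median change of all genes. Against 0h the difference grew for Camp (7.24, a value set by the pseudocount since all 0h libraries are listed at 0), Ccl3 (6.96), Il1a (6.94), Il1rn (6.60) and Gpr84 (6.32). It shrank or turned for Ccl8 (-5.62), Retnla (-4.69), Pf4 (-4.55), Thbd (-4.55) and Cd209f (-4.53). Against 6h it was larger for Serpinb2 (3.92), Rilpl1 (3.82), Cxcl11 (3.62), Tnip3 (3.46) and Slc25a22 (3.36). IM minus AM was lower at 2h than at 6h for Eif4ebp1 (-2.75), Fabp5 (-2.72), Slc16a3 (-2.58), Crispld2 (-2.52) and Lasp1 (-2.31). Eif4ebp1 and Fabp5 were lower in IM at 2h, while their libraries overlapped between the cell types at 6h. All 10 genes of the comparison with 6h lost their call without AM ipB161219 at 2h, without AM ipB161219 at 6h and with array weights, and 3 to 9 of them lost it without each of the other 7 libraries. Of the 10, 8 lost it without a filter on low values, 5 at a pseudocount of 0.1, 2 after rescaling without Rn45s and Lars2, 1 centred and 1 after quantile normalization. Among those compared with 0h, Retnla lost its call at a pseudocount of 0.1.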

How the results depend on the processing

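No called difference of a gene picked by the naming rule was reversed under any alternative run, at 2h or in the changes from 0h and 6h. Other genes named in the text were not part of this check. The 4877 genes called at 2h, of 8937 tested, became 3134 with array weights. With a filter of 20 TPM they became 2655 of only 4498 tested. They ran from 3059 to 5197 when 1 library was left out. Over all alternatives 393 to 596 list members were called, against 510 as reported. Against 0h, 2501 became 1432 with that filter and 1170 with array weights, and 1129 to 3360 when 1 library was left out. Against 6h, 60 became 128 at a pseudocount of 5, 5 without the filter, 274 after quantile normalization, 219 after rescaling without Rn45s and Lars2, 316 centred and 255 with a replicate block. With array weights limma called 0 (750 at unadjusted p under 0.05), and 1 to 39 when 1 library was left out. Each 2h group of IM and AM holds 1 library of each title code, but the labels do not say that a code marks a shared animal or day, and with 2 pairs the deviations correlated at 0.507. With the replicate block 5442 genes were called at 2h and 2717 against 0h. When the 4 libraries of IM and AM at 2h were fitted alone, without the spread of the other groups, 3313 genes were called. With the block added to that fit, 6200 were called. Requiring a C after the interferon-stimulated element left it in 39.4% of the interferon-stimulated promoters, where 51.5% held it without the C. The causes of these changes were not tested. Depth is unknown, and 2 libraries per group limit the precision.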
